A study of Homo sapiens with 3 samples.

Results

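Of the 65234 distinct accessible regions in the list analysed here, 6958 (10.7%) lay deep inside very long genes. A region was counted here when its midpoint fell inside a protein-coding gene of 300 kb or longer and more than 10 kb from the end of any annotated gene, using RefSeq gene bounds on GRCh38.p14. There were 773 such genes, 3.86% of the 20033 protein-coding genes on the main chromosomes. The regions come from ATAC-seq, an assay in which a transposase cuts open chromatin and the cut sites are sequenced, in neurons derived from the human iPSC line KOLF2.1J, a widely shared reference line. The derivative used here carries human NGN2, a transcription factor that turns stem cells into neurons, and cells were taken on day 14 of neuronal differentiation. How NGN2 is driven is not given in the sources used here. The 3 biological replicates, of 100000 cells each, form 1 group with no other genotype, treatment or time, and all come from 1 cell line. The authors pooled them into 1 list, so no value has a spread between replicates, no test between conditions was possible, and every comparison below describes places in this list.

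Very long genes are a hallmark of the nervous system. They encode many synaptic adhesion molecules, receptors, ion channels, scaffolds and RNA-binding proteins, and nearly all of their length is intron. Such introns can hold enhancers, which bind transcription factors and act on promoters at a distance, and additional promoters that produce shorter forms of the protein. The gene table used here gives gene bounds without exons, so whether a region is intronic or exonic was not analysed.

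Some of the regions coincided with annotated starts inside the genes, and these starts are the only places among them for which sequence is at hand. RefSeq start windows, each running from 250 bases before a start to 50 after it, were matched by gene identifier for 625 of the 773 genes. In 250 of these genes at least 1 start lay more than 10 kb from any gene end, which gave 478 internal start windows. A region of the list overlapped 250 of the 478 (52.3%, Wilson 95% confidence interval 47.8 to 56.7%), against 52.6% of all 35116 start windows in the table. The share was 46.7% (386 of 826) for internal starts of coding genes of 100 to 300 kb. Starts of the long genes within 1 kb of a gene end were overlapped in 590 of 658 cases (89.7%). The interval for the 478 windows treats them as independent, although windows of the same gene can share a region. In the phosphodiesterase gene PDE1A, 5 covered internal windows were overlapped by 1 region.

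The strength of a region is given by its values at the strongest summit. Tags are the sequenced cut signals piled up there, and fold enrichment is their ratio to the local background. The 250 bases before the start are given for 4 pairs of internal starts, so that a start with a region can be read against another start of the same gene without one. The 4 genes are among those with the most tags at a covered internal start, and each also has an uncovered internal start at least 5 kb away with no region within 1 kb. Capitals mark CpG dinucleotides, which are common in one class of mammalian promoter and rare elsewhere. The sequences are from RefSeq on GRCh38.p14, read in the direction of the gene.
RBPJ start with a region: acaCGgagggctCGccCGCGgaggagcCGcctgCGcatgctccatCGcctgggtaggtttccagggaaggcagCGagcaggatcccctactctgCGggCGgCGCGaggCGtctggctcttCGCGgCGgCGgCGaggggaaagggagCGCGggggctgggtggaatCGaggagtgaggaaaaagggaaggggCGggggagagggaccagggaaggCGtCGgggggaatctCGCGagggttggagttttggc
RBPJ start without a region: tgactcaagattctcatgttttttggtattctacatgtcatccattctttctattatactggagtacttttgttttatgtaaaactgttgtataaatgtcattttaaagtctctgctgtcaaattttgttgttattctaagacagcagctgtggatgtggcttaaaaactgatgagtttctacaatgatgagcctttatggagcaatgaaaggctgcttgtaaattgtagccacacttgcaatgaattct
RABGAP1L start with a region: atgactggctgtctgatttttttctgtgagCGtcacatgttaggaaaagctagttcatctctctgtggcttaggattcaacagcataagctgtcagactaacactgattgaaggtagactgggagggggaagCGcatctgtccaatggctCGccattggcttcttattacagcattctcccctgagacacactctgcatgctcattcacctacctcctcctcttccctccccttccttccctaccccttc
RABGAP1L start without a region: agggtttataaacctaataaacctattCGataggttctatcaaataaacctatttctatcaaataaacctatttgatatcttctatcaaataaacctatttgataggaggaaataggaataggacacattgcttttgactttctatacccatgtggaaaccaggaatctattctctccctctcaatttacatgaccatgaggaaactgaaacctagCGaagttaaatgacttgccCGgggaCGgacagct
MAPK10 start with a region: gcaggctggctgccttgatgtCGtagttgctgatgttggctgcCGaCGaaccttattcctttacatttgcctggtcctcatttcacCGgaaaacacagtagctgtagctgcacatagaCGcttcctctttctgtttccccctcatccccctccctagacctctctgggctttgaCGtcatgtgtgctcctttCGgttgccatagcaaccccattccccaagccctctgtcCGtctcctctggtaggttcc
MAPK10 start without a region: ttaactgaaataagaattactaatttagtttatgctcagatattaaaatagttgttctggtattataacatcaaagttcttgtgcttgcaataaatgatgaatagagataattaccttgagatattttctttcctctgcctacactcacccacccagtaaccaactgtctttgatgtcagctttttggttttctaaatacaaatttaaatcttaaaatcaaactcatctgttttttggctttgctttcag
ADGRL2 start with a region: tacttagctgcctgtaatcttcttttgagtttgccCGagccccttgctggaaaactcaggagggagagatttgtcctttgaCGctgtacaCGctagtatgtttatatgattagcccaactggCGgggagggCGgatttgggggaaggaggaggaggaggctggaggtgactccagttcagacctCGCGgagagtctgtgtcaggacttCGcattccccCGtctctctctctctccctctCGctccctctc
ADGRL2 start without a region: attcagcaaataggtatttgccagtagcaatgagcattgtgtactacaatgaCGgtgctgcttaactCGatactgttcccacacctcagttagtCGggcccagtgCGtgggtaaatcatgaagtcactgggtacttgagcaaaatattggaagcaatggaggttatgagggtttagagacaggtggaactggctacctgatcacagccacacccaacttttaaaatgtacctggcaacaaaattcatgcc

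RBPJ, the DNA-binding factor of the Notch pathway, had its covered window at chr4:26320764-26321013 on the plus strand, with 26 CpG and 69.6% G and C. The region there, from 26319241 to 26321674, had a fold enrichment of 8.62 over its local background and 1996 tags at its summit (exact Poisson 95% interval 1909 to 2086). Its uncovered start, 22.1 kb away at chr4:26342890-26343139, had 0 CpG and 33.6% G and C. MAPK10, a neuronal JNK kinase, had 8 CpG before the covered start at chr4:86360054-86360303 on the minus strand, where the region had a fold enrichment of 13.0 and 1370 tags. It had 0 CpG at chr4:86354645-86354894, 5.41 kb away on the same strand. In ADGRL2, a latrophilin adhesion receptor, the plus-strand windows at chr1:81801192-81801441 (covered, 1245 tags) and chr1:81699358-81699607 (not covered) held 10 and 4 CpG. RABGAP1L, a Rab GTPase-activating protein, went the other way in CpG count only. Its covered plus-strand window at chr1:174799488-174799737, with 1543 tags and a fold enrichment of 12.5, held 3 CpG, and the uncovered window at chr1:174874169-174874418 held 4. G and C made up 49.2% of the covered and 36% of the uncovered window of RABGAP1L. The values were 54% and 30% in MAPK10, and 54.8% and 45.2% in ADGRL2.

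Over all 478 internal windows, windows with more CpG had a region more often. Windows that share a region were each counted. Of windows with 0 to 4 CpG in their 300 bases, 66 of 217 (30.4%) had a region. The share was 56.4% (66 of 117) with 5 to 9 CpG, 70.1% (47 of 67) with 10 to 19 and 92.2% (71 of 77) with 20 or more. The median was 9 CpG in covered and 3 in uncovered windows, and the median content of G and C was 52.3% and 43.2%. Covered internal starts were poorer in CpG than covered starts at the ends of the same genes, where the median was 27.5. Short sequence words were searched on both strands of the 300 bases, independently of each other, so that matches may overlap. GGGCGG, the GC box, was found in 32.4% of covered and 7.46% of uncovered internal windows (45.0% of all start windows), and TATAAA, the TATA box, in 7.2% and 22.8% (11.5% of all). The word CAGATG, an E-box of the kind that NGN2 and related factors bind, was found in 16.4% and 18.4% (14.7% of all), and CAGCTG in 23.2% and 17.1% (17.9% of all). A match is a description of the sequence and not a binding site.

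**Figure D1:**
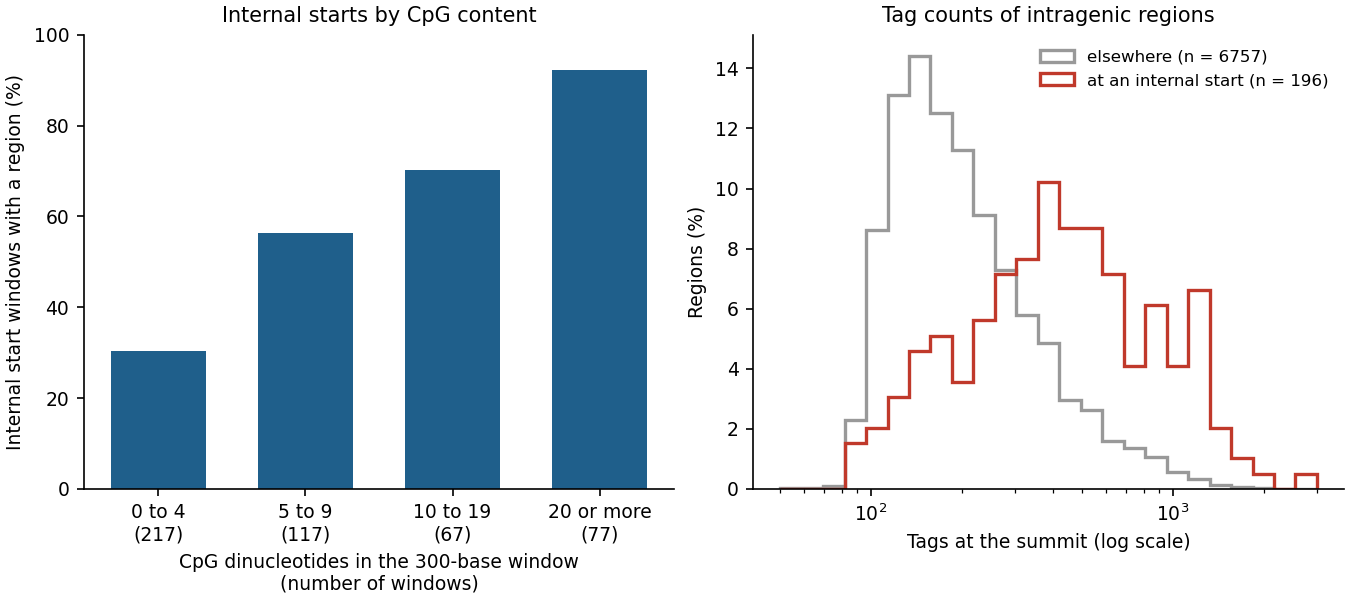
Left, the percentage of internal start windows of long genes that overlap an accessible region, by the number of CpG dinucleotides in the window (bars start at 0, number of windows in brackets). Right, the percentage of intragenic regions of long genes by tags at the summit (log scale), for 196 regions at an internal start and 6757 elsewhere: the share of windows rises from 30.4% to 92.2%, and the regions at starts lie toward higher tag counts.

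The regions at internal starts stood out among the intragenic regions of long genes. There were 196 of them, 2.82% of the 6958. Of regions more than 10 kb from gene ends outside these genes, 2.36% overlapped a start window, and of all regions in the list 19.2% did. Their summits had 88 to 2688 tags with a median of 419.5, against 58 to 2108 with a median of 182 in the 6757 regions at no start window, a ratio of medians of 2.30. The median fold enrichment was 7.31 against 5.06, and the median width 1282 against 781 bp. The groups overlapped over most of their range. Start windows were matched for only 625 of the 773 genes, so the 6757 also hold regions of genes whose starts could not be matched. At least 1000 tags were found in 25 of the 196 (12.8%) and 60 of the 6757 (0.888%), with 10.4% of all regions in the list at that level. Among the 100 intragenic regions with the most tags 28 lay at an internal start, and among the 100 of highest fold enrichment 13 did. The local background at the summit had a median of 57.5 tags at internal starts and 33.7 elsewhere.

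Of genes with an annotated internal start but no region at their outer ends, most had a region at an internal start. A region midpoint lay within 1 kb of an end in 643 of the 773 genes (83.2%), against 67.1% of all protein-coding genes. Among the 625 genes with a known strand it lay at the start in 513 (82.1%) and at the other end in 26 (4.16%). Of the 130 genes without a region at either end, 60 had an annotated internal start, and in 47 of these (78.3%) a region overlapped one. In 39 of the 47 no annotated start at a gene end was overlapped either. These 39 include genes such as RBPJ and CEP128, which had no annotated start within 1 kb of a gene end to overlap. In CEP128 and GPC6 the internal start was the only annotated one. Of the 190 genes that had both a region at an end and an internal start, 109 (57.4%) had a covered internal start.

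EHBP1, an actin-linked adaptor of endosomal traffic, had such an internal start. Its strongest region, chr2:62704991-62706444, had the most tags of all intragenic regions, 2688 (interval 2587 to 2792), and a fold enrichment of 13.5, and no region lay within 1 kb of either end of the gene. CEP128, a centriole protein, had 1315 tags at its covered internal start. MACF1, a linker of microtubules and actin, had 1295 tags, GPC6, a heparan sulfate proteoglycan, had 1147, and CTNNA2, the neuronal alpha-catenin, had 1062. TCF4, a basic helix-loop-helix factor that pairs with proneural factors such as NGN2, had 3 of its 6 internal starts covered, the strongest with 750 tags. A region also overlapped 1 of the 2 TCF4 start windows at a gene end, though no region midpoint lay within 1 kb of an end. In RBFOX1, the neuronal splicing regulator, 3 of 5 internal starts were overlapped by 2 regions, of which the stronger had only 139 tags. In DMD, which has a series of internal promoters for short dystrophins, 2 of 6 internal starts were covered and the stronger had 429 tags. MAP2, the dendritic microtubule-associated protein, had a region at all 3 of its internal starts, with up to 1219 tags, besides one at an end.

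The density of regions was then computed for each gene over its countable sequence, that is, the part more than 10 kb from any gene end, since the remainder cannot hold a counted region. This part was 81.2% of the gene at the median, and at least 115.7 kb. The median density was 1.95 regions per 100 kb, with quartiles at 1.28 and 2.79 and a range of 0 to 10.5. At least 1 region was found in 757 of the 773 genes (97.9%), with a median of 8 and a maximum of 50. For coding genes of 100 to 300 kb with at least 50 kb countable, 1842 of 2372 (77.7%) had one. These genes were each shorter than 300 kb, against a median of 361.6 countable kb in the long genes. The shares were not adjusted for this. Only 32 of the 6958 regions lay in more than 1 long gene.

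Pooled over the 353.4 Mb of countable sequence, the long genes held 1.97 regions per 100 kb. Coding genes of 100 to 300 kb, over 281.2 Mb, held 2.07, a ratio of 0.952. Sequence in no gene, counted at the same distance from gene ends over 814.2 Mb, held 1.40, a ratio of 1.41. The long genes were denser than the sequence in no gene on all 22 autosomes, with ratios from 1.10 to 2.35. Against coding genes of 100 to 300 kb they were denser on 10 autosomes and sparser on 12. By gene the order was the reverse of the pooled one. The median was 1.95 in the 773 long genes and 1.63 in 2372 coding genes of 100 to 300 kb. Unsequenced gaps were not removed from the sequence in no gene beyond leaving out 1 Mb bins with neither a gene nor a region. On the autosomes the density in long genes ran from 1.71 on chromosome 15 to 2.94 on chromosome 19. On the X chromosome it was 0.737, with 0.511 in X sequence in no gene, and the median over 32 X genes was 0.579, against 1.99 over 739 autosomal genes.

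MAML3, a co-activator of Notch target genes at chr4:139716753-140154184, was first with 28 regions in 266.8 countable kb, or 10.5 per 100 kb (exact Poisson 95% interval of the count, 6.97 to 15.2). Its paralogue MAML2 was eighth with 21 regions and 6.09 per 100 kb (3.77 to 9.31). SHROOM3, which drives apical constriction of epithelia through actin, was second with 16 regions and 7.81 (4.47 to 12.7). MSI2, an RNA-binding protein of the Musashi family known from progenitor cells, followed with 24 and 7.75, and GSE1, a subunit of a histone deacetylase complex, with 23 and 7.38. GLI3, a transcription factor of the hedgehog pathway, had 19 regions and 7.25, although no region lay within 1 kb of its ends. These intervals treat each count as a Poisson count and hold no replicate error.

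MAP2 had 17 regions and 6.12 per 100 kb. APBB2, an adaptor of the amyloid precursor protein, had 5.94, and LIMCH1, an actomyosin regulator, 5.74. NTRK2, the receptor of brain-derived neurotrophic factor, had 18 regions and 5.74. CHST11, a chondroitin sulfotransferase, had 5.73, RERE, a nuclear corepressor, 5.53, and NAV2, a neuron navigator protein, 5.50 with 29 regions. TRIO, an exchange factor for small GTPases in axon growth, had 5.35, BACH2, a basic leucine zipper repressor, 5.28, and SRGAP3, a GTPase-activating protein of the Slit and Robo pathway, 5.14. The densest 20 closed with AGAP1, an Arf GTPase-activating protein, at 5.08, NCALD, a neuronal calcium sensor, at 5.04, and NRCAM, a cell adhesion molecule of axons, at 5.01. All 19 others had an interval that overlapped that of MAML3. Differences between neighbours in this order were not tested, and overlap alone does not show that densities are equal. A covered internal start was found in 4 of the 20, and in 156 of all 773 long genes (20.2%), of which 625 had matched start windows.

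**Figure D2:**
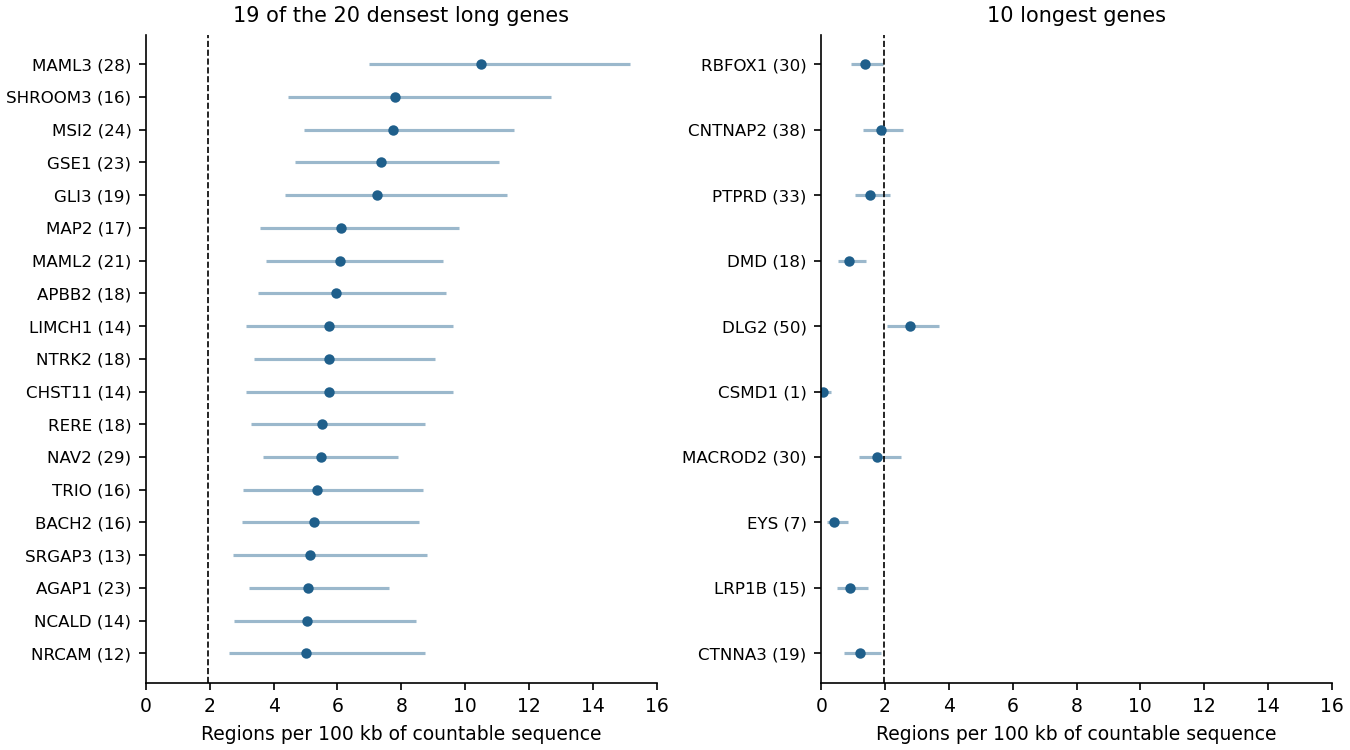
Regions per 100 kb of countable sequence in 19 of the 20 densest (left) and the 10 longest (right) of the 773 long genes, with exact Poisson 95% intervals of the count as horizontal bars and the number of regions in brackets. The dashed line is the median of all long genes, 1.95: the densest genes, chosen by this value, run from 5.01 to 10.5, and 9 of the 10 longest genes lie below the line.

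The 28 regions of MAML3 varied widely in strength. Their fold enrichment ran from 2.58 to 11.7 with a median of 4.25, below the median of 5.10 for all intragenic regions of long genes, and their tags from 77 to 1267 with a median of 177, against 185. A run of 9 of them, from 139833030 to 139876090, had 114 to 390 tags each. It was among the 2 fullest windows of 50 kb in these genes. The other, also with 9 regions, lay in CDK14, a cyclin-dependent kinase, at chr7:91119658-91170244, with 133 to 807 tags. They were followed by 8 regions in PTPRN2, a secretory vesicle protein, at chr7:157662853-157693910. AKAP6, an anchor for protein kinase A, had 7 at chr14:32692902-32729389, and FBXL17, an F-box protein, had 7 at chr5:107935662-107972490.

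At the other end, 16 genes had no listed region in their countable sequence, 11 on autosomes, 3 on the X and 2 on the Y chromosome. The list holds only regions past the authors' threshold, so this says that none was listed and not that the chromatin was closed. In 13 of the 16 a region lay within 1 kb of an end. DOCK3, a neuronal exchange factor for Rac, had 635.2 countable kb without a region and regions at both ends. STXBP5L, a syntaxin-binding protein, had 434.7 kb without one, CFAP47, a cilium protein on the X, 384.9 kb, and DOCK1, a paralogue of DOCK3, 374.2 kb. BRINP3, a neural cell-cycle inhibitor, had 280.5 kb, and ZRANB3, a DNA repair helicase, 270.6 kb, both with a region at an end. The neighbours TMEM132D (674.5 kb) and TMEM132C (380.5 kb) on chromosome 12, which encode neural membrane proteins, had none in the countable sequence and none at their ends. The 500 kb on either side of each held 0 counted regions, whereas the flanks of DOCK3 held 2.59 per 100 kb. Flanks were counted without leaving out other long genes, so the flank of either neighbour can include part of the other. KLF8, a zinc finger factor on the X, had 254.2 kb without a region, and PLCE1, a phospholipase C, had 164.3 kb.

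The longest genes spanned a wide range. DLG2, a postsynaptic scaffold of 2.17 Mb, held 50 regions, the most of any gene, at 2.79 per 100 kb (interval 2.07 to 3.68). CSMD1, a complement-regulating membrane protein of 2.06 Mb, held 1, at 0.0563 per 100 kb (0.00143 to 0.314), with 192 tags, and a stretch of 1549 kb without any listed region. RBFOX1, the longest at 2.47 Mb, held 30 regions at 1.37 per 100 kb. CNTNAP2, an axonal relative of the neurexins, held 38 at 1.87, and PTPRD, a synaptic receptor phosphatase, 33 at 1.54. MACROD2, an ADP-ribose hydrolase, held 30 at 1.76, CTNNA3, a catenin of heart and testis, 19 at 1.20, and DMD 18 at 0.886. LRP1B, a lipoprotein receptor relative, held 15 at 0.896, and EYS, a photoreceptor matrix protein, 7 at 0.413 (0.166 to 0.851).

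**Figure D3:**
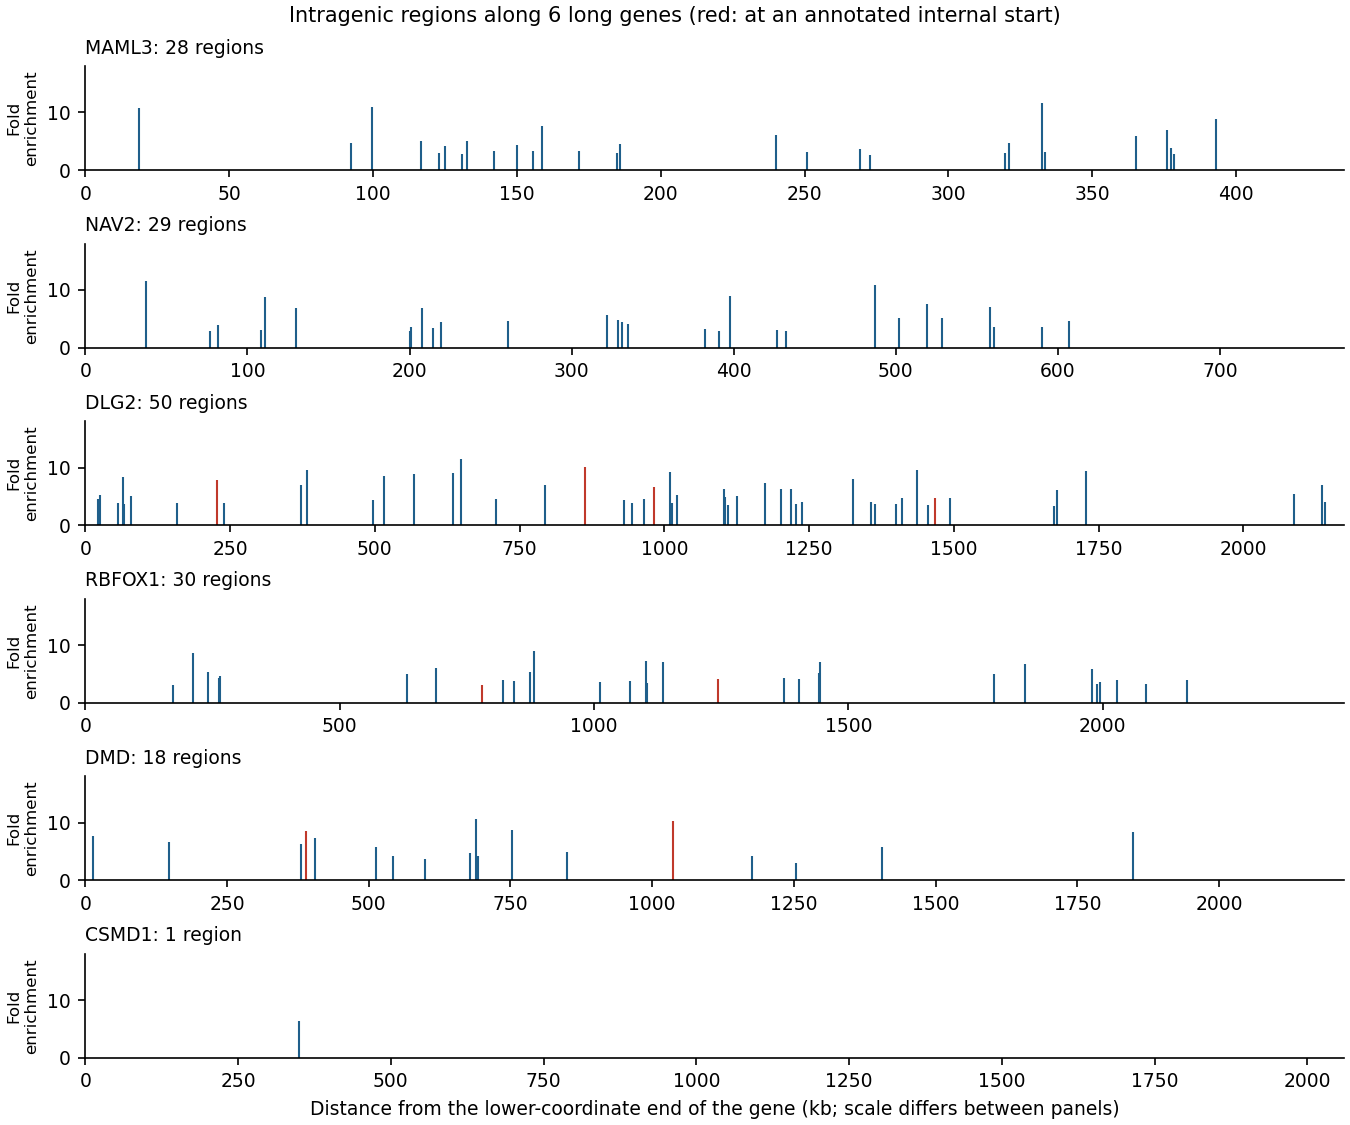
Position (distance in kb from the lower-coordinate end, with a different scale in each panel) and fold enrichment (line height) of each intragenic region in 6 long genes, with regions at an annotated internal start in red. The panels run from MAML3 with 28 regions to CSMD1 with 1.

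Density was somewhat lower in longer genes. The median was 2.03 per 100 kb in 458 genes of 300 to 500 kb, 1.88 in 246 genes of 500 kb to 1 Mb and 1.51 in 69 genes of 1 Mb or more, and Spearman's rank correlation with length was -0.15 across the 773 genes. Across the same genes the rank correlation was 0.22 with the density in the 500 kb on either side, and 0.17 across the 739 autosomal genes alone. The 20 densest genes, all autosomal, had a median of 2.42 per 100 kb in these flanks. The 12 autosomal genes among the 20 sparsest had a median of 1.78, against 1.82 for all autosomal long genes, and the 8 on the X or Y chromosome had 0.201. Across 588 genes with at least 5 regions, that between density and the median fold enrichment was 0.04. These correlations are across genes of 1 pooled list and are descriptions only.

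Density differed little between genes with and without a region at an end. The median was 1.96 per 100 kb (quartiles 1.29 and 2.80) in the 643 with one and 1.90 (1.18 and 2.63) in the 130 without. Where the strand was known, the median was 1.97 in 513 genes with a region at the start and 2.00 in 112 without. CUBN, the cubilin receptor of kidney and intestine, was one of the dense genes without a region at an end, with 14 regions and 4.90 per 100 kb.

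Gene lists by function are described by the medians over their long members, against 1.95 for all 773. Transcription factors and RNA-binding proteins were the densest list. Their median was 2.91 over 34 genes, 28 were above the overall median and none was below the lower quartile of 1.28. MSI2 and BACH2 were among its densest, and NR3C2, the mineralocorticoid receptor (1.57), ZNF385D, a zinc finger protein (1.51), and RBFOX1 (1.37) were lowest. Kinases, phosphodiesterases and phospholipases, with growth factor relatives, had a median of 2.65 over 24 genes, 20 of them above the overall median. NTRK2 led, followed by DCLK1, a microtubule-associated kinase (3.88), and PRKCA, protein kinase C alpha (3.87). The lowest was PDE10A, a striatal phosphodiesterase (1.14).

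Axon guidance genes had a median of 2.17 over 20 genes, 13 above the overall median. SLIT2, a repellent ligand, had 4.90, and UNC5C, a netrin receptor, had 3.98. UNC5D, the paralogue of UNC5C, had 0.626. PTPRT, a receptor phosphatase, was lowest at 0.410. Synaptic scaffold and release genes had a median of 1.89 over 21 genes, from MAGI1, a junctional scaffold (3.57), to UNC13C, a vesicle priming factor (0.592). Synaptic adhesion genes had 1.87 over 35 genes, with 15 above the overall median. SDK2, an immunoglobulin-type recognition molecule, had 4.15, its relative DSCAML1 4.12 and the neural cell adhesion molecule NCAM1 4.04. The lowest were the receptor-like IL1RAPL2 (0.485) and IL1RAPL1 (0.400) and the teneurin TENM1 (0.133), all on the X chromosome.

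Glutamate and GABA receptor genes had a median of 1.76 over 17 genes. GRIA1, an AMPA receptor subunit, had 14 regions at 4.93 per 100 kb, and GRIN2B, an NMDA receptor subunit, had 15 at 4.41. GRM5, a metabotropic receptor, had 0.996, and the X-linked GRIA3 had 1 region at 0.349. Ion channel genes had 1.63 over 28 genes, from KCNIP1, a subunit of A-type potassium channels (4.44), to KCNH5, a potassium channel (0.307). Genes listed for muscle, kidney, retina, cartilage and airway had 1.74 over 19 genes. Their expression was not measured here. Their highest was MYO3B, an unconventional myosin (4.16), followed by DNAH11, an axonemal dynein (2.56), with EYS and SGCZ, a sarcoglycan (0.577), lowest.

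Cadherins and catenins were the sparsest list, with a median of 0.987 over 12 genes and 8 below the lower quartile. PCDH9, a protocadherin, had 2.56, CTNND2, the neuronal delta-catenin, 2.51 and CDH4 2.39, against 0.599 for CDH18, 0.519 for PCDH7 and 0.139 for the X-linked PCDH11X. Genes at common fragile sites, which are long and break under replication stress, had a median of 1.19 over 18 genes, with 11 below the lower quartile. DLG2 was their highest and CSMD1 their lowest. Length differed between the lists. The median gene of the fragile-site list was 1292 kb long and that of the cadherin list 1018 kb, against 533 kb for transcription factors and RNA-binding proteins and 450.2 kb for all long genes, and the part of length in these differences was not tested. Some genes stand in more than 1 list.

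**Figure D4:**
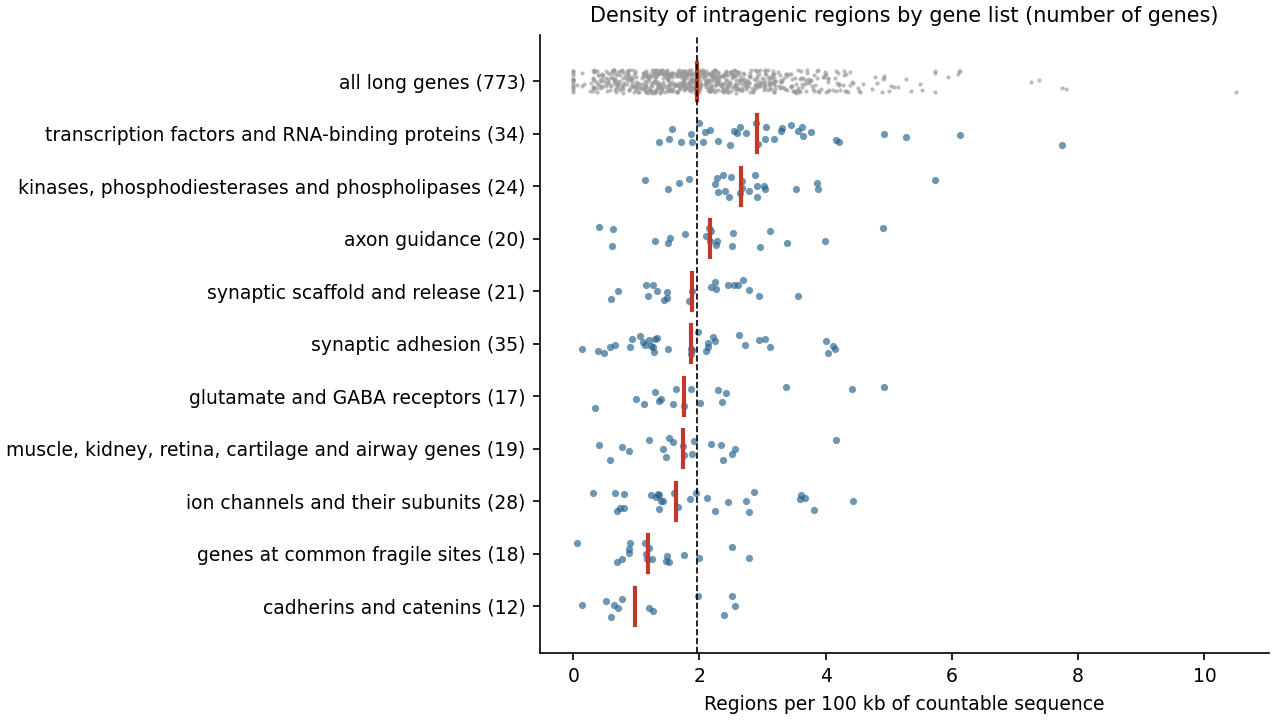
Regions per 100 kb of countable sequence in each long gene (points), by functional list, with the list's median as a red bar and the overall median of 1.95 as a dashed line. The medians run from 0.987 for cadherins and catenins to 2.91 for transcription factors and RNA-binding proteins, and the points of all lists overlap.

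Within the genes, the density was highest toward the end of the transcription unit. The 625 genes of known strand were divided into 5 equal parts from the outer start. The part nearest the start held 998 regions at 1.81 per 100 kb (interval 1.70 to 1.93), the parts between 1.88, 1.87 and 1.97 in order, and the part farthest from the start 1258 regions at 2.43 (2.29 to 2.56). The same order between the outermost parts was found in each length class, with 2.16 and 2.57 in genes of 300 to 500 kb, 1.75 and 2.47 in genes of 500 kb to 1 Mb and 1.41 and 2.14 in longer genes. In coding genes of 100 to 300 kb the values were 1.89 and 2.11. The intervals of the outermost parts overlapped in these shorter genes and in those of 300 to 500 kb, and did not in the other two classes. The part farthest from the start was the denser one on 17 of the 21 autosomes that had long genes of known strand here, which leaves out chromosome 8. By gene it was denser in 306 genes, sparser in 225 and equal in 63, counting genes with at least 20 kb countable in both parts. Without the regions at start windows the values were 1.74 and 2.36.

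**Figure D5:**
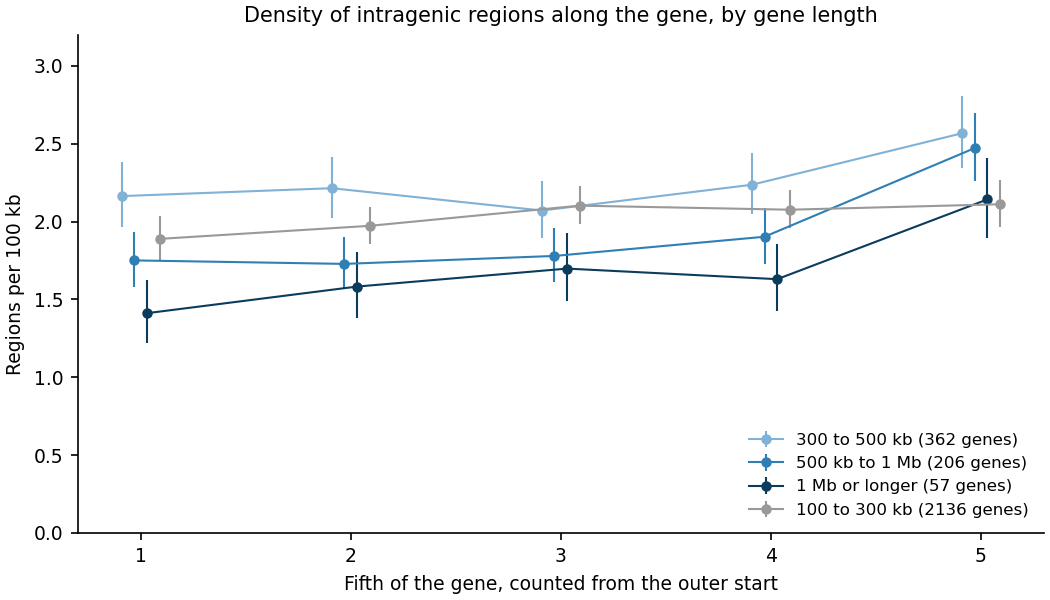
Regions per 100 kb of countable sequence in 5 equal parts of the gene, counted from the outer start, for long genes in 3 length classes and for coding genes of 100 to 300 kb, with exact Poisson 95% intervals as vertical bars. In each of the 3 classes of long genes the part farthest from the start has the highest value, 2.57, 2.47 and 2.14.

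In strength the intragenic regions of long genes resembled other regions far from gene ends. Their fold enrichment ran from 1.95 to 19.6 with a median of 5.10, against 5.19 in the 22794 other regions more than 10 kb from gene ends, or a log2 ratio of -0.02. The median tag count was 185 against 191 and the median width 788 against 801 bp. Regions within 10 kb of a gene end were stronger, with medians of 6.15 in fold enrichment and 319 tags. A fold enrichment of 10 or more was found in 484 (6.96%), against 7.12% of the other far regions and 15.7% of all regions in the list. The top score of 1000 was given to 4586 (65.9%), against 67.3% and 73.7%. A single summit was recorded in 39.4%, against 39.6% and 33.8%. The distance to the nearest other region more than 10 kb from gene ends had a median of 15.8 kb, against 14.9 kb in coding genes of 100 to 300 kb and 23.6 kb in no gene, and 36.2%, 38.9% and 29.8% had one within 10 kb.

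Among the regions of highest fold enrichment, DNAH6 and TMEM232, a dynein and a sperm protein, had 17.1 each, both at an internal start, at chr2:84515823-84516907 and chr5:110726226-110727398. SYNE1, a nuclear envelope linker, had 16.3 with 1658 tags at chr6:152301431-152302602. By tag count, EHBP1 was followed by STARD13, a GTPase-activating protein, with 2108 (chr13:33542161-33543371), NCOA2, a steroid receptor co-activator, with 2047 (chr8:70401770-70403477), RBPJ, and NOS1AP, an adaptor of neuronal nitric oxide synthase, with 1768 (chr1:162248555-162249682).

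Both limits of the selection fell among ordinary values. The genes just inside 300 kb, CACNA1A and TP63, had 1.43 and 1.15 regions per 100 kb, and those just outside, HSD17B12 and NUBPL, 1.55 and 0. The regions just past 10 kb, in ERC2 and GPC6, had 122 and 302 tags, and those just within, in FMN1 and KIF6, 183 and 114. In all, 9427 regions lay inside the long genes, of which 2469 (26.2%) were left out because a gene end was within 10 kb. As a check of the cell type, a region lay at an end or start of 10 of 10 neuronal marker genes and 5 of 5 progenitor genes. It did so for 2 of 5 pluripotency genes, with POU5F1 and NANOG among those without, 2 of 5 glial genes and 1 of 5 genes of mesenchyme, endothelium and blood. Of all protein-coding genes, 67.1% had a region within 1 kb of an end, with start windows not counted. These small counts do not tell neurons from progenitors.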

How the data were processed

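ATAC-seq of 3 samples was analysed from 1 list of 145092 entries, pooled by the authors; the name given to it in the labels marks it as an optimal set from an irreproducible discovery rate analysis. The genome build is hg38, per the submitters' processing notes; the aligner, peak caller and filters are not given in the sources used here. Each entry was deposited with a fold enrichment, a ratio on a linear scale. The deposited −log10 p and −log10 q are those of the peak caller, and the deposited score is a whole number whose scaling is not stated. The deposited summit offset gave the summit position.

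Entries that share start and end were counted once, which left 65234 regions, each with the values of its entry of highest −log10 p. Tag counts at summits were recovered from fold enrichment and −log10 p as the whole number n that gives a Poisson tail above n, with 1 added to tags and background in the ratio. The largest miss was 0.00079 in −log10 p. Tags ranged from 58 to 3783, the depth of each replicate is unknown, and counting error was 7.35% at the median tag count of the intragenic regions. Libraries were amplified by PCR, so all intervals cover counting error only.

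Gene bounds, start windows and strand came from RefSeq tables for GRCh38.p14. No region sequence was read, as no genome was used. Genes named are the 20 densest, the 10 longest, 10 or fewer of those without a region, the extremes of each list, those at the limits, and those chosen after their values were seen for internal starts; Y-linked genes are counted and not named, and some other genes that this rule selects are not reported here. The members and lists were chosen with earlier results of these data known. Code in Python 3.11.15 with numpy 2.4.6, scipy 1.17.1, pandas 2.3.3 and matplotlib 3.10.9 was tested on simulated data. Alternatives were other length and distance limits, ends of coding genes only, all entries, a score of at least 830, the summit as position and whole gene length; autosomes only was added after the data were seen, as were the settings for internal starts and for the ends of the transcription unit.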

Additional observations from a re-analysis of the deposited data

How the results depend on the processing

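Of 93 recomputed values, 76 stayed within the 95% interval of the reported value, or within 1.5 times a reported count, and 17 moved. With genes of 500 kb or longer the number of regions was 3917, the median density 1.85 per 100 kb, the ratio to shorter coding genes 0.854 and the ratio to sequence in no gene 1.29, and 3 of the 20 densest genes remained, since shorter ones were left out. With genes of 200 kb or longer 6 of the 20 remained and the ratio to shorter coding genes was 1.00, so its direction is not firm. The ratio to sequence in no gene was 1.34 at 5 kb from gene ends, 1.51 at 20 kb, 1.35 with ends of coding genes only and 1.35 on autosomes only. Counting all entries gave 13739 in place of 6958, a median density of 3.80 and a median fold enrichment of 3.81. A score of at least 830 gave 1.54 and 5.70. Over the whole gene length the median density was 1.54 and 14 of the 20 densest genes remained. Beyond what each setting leaves out or admits, the cause was not tested.

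The density in the part of the gene farthest from the start was 1.26 to 1.45 times that nearest the start under every alternative run, and the share of internal starts with a region ran from 49.0 to 56.6%. The difference in median density between genes with and without a region at an end changed sign with ends of coding genes only (-0.02) and with all entries (-0.05). Of 90 recomputed list medians 14 moved. In 10 of 10 settings the medians of transcription factors and RNA-binding proteins, kinases and axon guidance genes stayed above that of all long genes. Those of cadherins, receptors, channels, tissue genes and fragile-site genes stayed below it in 10 of 10. These settings share genes and regions, so the counts do not show spread between genes. The interval of the reported median included the overall 1.95 for cadherins (0.599 to 2.39), receptors (1.36 to 2.36) and channels (1.34 to 2.46). It did so for tissue genes (1.19 to 2.34) and axon guidance genes (1.54 to 2.53). It lay above 1.95 for transcription factors and RNA-binding proteins (2.30 to 3.46) and kinases (2.30 to 2.92). It lay below for fragile-site genes (0.886 to 1.51). No paired analysis was possible because there was 1 group and 1 pooled list, and leaving out a replicate could not be done with it.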
